A study of Mus musculus with 43 samples.

Results

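Foxp3 and the Ikaros family of transcription factors, Ikzf1 (Ikaros), Ikzf2 (Helios), Ikzf3 (Aiolos), Ikzf4 (Eos) and Ikzf5 (Pegasus), were followed through CD4 T cells that met antigen briefly, persistently or not at all. These 6 genes were chosen by name; each was read from the only probe set that carries its symbol alone, out of 22180 genes measured in the same way. For Foxp3, 1 further annotated probe set carries the symbol together with another and was not read. Each of 43 samples was measured on a single-colour array of its own, and the deposited values are log2 signals. The donor cells were AND TCR transgenic, with a receptor for a peptide of moth cytochrome c (MCC), and came from CD45.1+ Rag2o/o donors, so that every group shares the receptor and the loss of Rag2. They were sorted back from the recipients as CD4+CD90.2+CD45.1+ cells.

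The groups differ in how long and how strongly the recipients showed the peptide. In iMCC recipients, a pair of transgenes makes dendritic cells express an invariant chain carrying MCC as long as doxycycline is in the drinking water. These recipients received an anti-CD40 antibody 1 day before transfer and 100 µg/ml doxycycline up to day 3. From then on the dose was 0 µg/ml in the group called none, 10 µg/ml in low and 100 µg/ml in intermediate (int), with sorts on day 10 or day 30. The off group, sorted on day 30, was kept on 100 µg/ml up to day 10 and on 0 µg/ml after it. The high group came from cMCC recipients, a separate strain in which MHC-II+ cells make the peptide constitutively, with no doxycycline; it was sorted on day 10 alone. The naive group was sorted 3 days after transfer into recipients without either transgene. It therefore differs from every other group in the day of the sort and in the recipients as well as in antigen. From the iMCC groups it differs in doxycycline too. In comparisons with naive these differences cannot be told apart from priming. The int and high groups of day 10 had 4 arrays each and the other 7 groups 5. The day 30 cells came from a second series of sorts, so that a difference between the days cannot be told apart from one between the series. High differs from int and none in the recipient strain, the presenting cells and doxycycline as well as in antigen dose. Anti-CD40 is named above for the iMCC recipients only. Ages are not stated, and the labels do not say that replicates came from separate animals; p-values therefore measure only the spread between these samples, which may be technical.

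Foxp3 is the forkhead factor that defines regulatory T cells (Treg cells), the CD4 cells that hold other T cells in check, and its loss causes fatal autoimmunity in mice. The Ikaros factors bind DNA through zinc fingers at one end and pair with each other through zinc fingers at the other; in lymphocytes they recruit the NuRD chromatin remodelling complex and other repressors. Ikaros and Aiolos are known from lymphocyte development, Eos from Foxp3-dependent repression in Treg cells, and Pegasus is the most distant relative. Helios is abundant in Treg cells that arise in the thymus, and it has also been described in conventional T cells that meet antigen without clearing it. Whether Ikzf2 can be high where Foxp3 is not was the question put to these arrays.

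The table of mouse promoters drawn from RefSeq (build GRCm38.p6) held 3 of the 6 genes, Foxp3, Ikzf1 and Ikzf5. The 250 bases before 1 annotated start of each are shown. They set the promoter of Foxp3, which was lower in primed groups than in naive, beside those of Ikzf1 and Ikzf5, which had 1 and 0 calls in 19 comparisons. Capitals mark the core letters GGAAA, to which NFAT proteins of the activated T cell receptor pathway bind, or GGGAA, the core of the Ikaros motif, read on both strands and with overlap possible in GGGAAA.
Foxp3, chrX:7579426-7579675, plus strand: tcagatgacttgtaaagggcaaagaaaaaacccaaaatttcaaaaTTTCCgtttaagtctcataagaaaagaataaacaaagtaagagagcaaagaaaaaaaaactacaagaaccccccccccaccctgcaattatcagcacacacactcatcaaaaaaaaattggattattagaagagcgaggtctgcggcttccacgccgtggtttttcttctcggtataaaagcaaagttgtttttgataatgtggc
Ikzf1, chr11:11685675-11685924, plus strand: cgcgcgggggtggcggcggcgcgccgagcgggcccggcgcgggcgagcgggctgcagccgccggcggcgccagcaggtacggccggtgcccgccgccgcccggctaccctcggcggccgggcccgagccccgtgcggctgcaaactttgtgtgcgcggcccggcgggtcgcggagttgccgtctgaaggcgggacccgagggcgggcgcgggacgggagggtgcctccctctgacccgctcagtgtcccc
Ikzf5, chr7:131410479-131410728, minus strand: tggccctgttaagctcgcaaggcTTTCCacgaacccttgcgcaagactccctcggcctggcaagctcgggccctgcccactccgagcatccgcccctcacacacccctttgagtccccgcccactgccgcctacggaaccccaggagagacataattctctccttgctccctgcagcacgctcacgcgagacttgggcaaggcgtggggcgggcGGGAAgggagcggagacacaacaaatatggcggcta
The Foxp3 stretch had 37.6% G and C and 6 CpG pairs, against 82% and 44 for Ikzf1 and 64% and 18 for Ikzf5; the median over 32851 promoters of this length was 52.4% and 6. GGAAA occurred 1 time in the Foxp3 stretch and 1 time in that of Ikzf5, and was present in 55.57% of all promoters. GGGAA occurred 1 time in the Ikzf5 stretch and 0 times in the others shown, and was present in 56.24% of all promoters. Foxp3 and Ikzf1 have a second start in the table. That of Foxp3, chrX:7580233-7580482, had 46% G and C, 7 CpG pairs, 1 GGAAA and 0 GGGAA. That of Ikzf1, chr11:11689927-11690176, had 47.6% G and C, 1 CpG pair, 0 GGAAA and 2 GGGAA, so that its composition differs from the stretch shown. Such matches describe the letters only.

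The sorted cells carried their defining transcripts. Group means lay between 9.12 and 10.01 for Cd4, between 10.59 and 11.44 for Cd3e, and between 10.13 and 11.20 for Thy1, which encodes CD90, while Rag2 stayed between 2.59 and 3.05. Markers of other cells stood out on naive replicates 3 and 4. Cd79a, a B cell receptor chain, read 7.68 and 6.65 on them and 3.95 to 5 on the other naive arrays. The mean over 11 measured B cell markers was 5.26 and 4.51 there and 3.76 to 4.03 on the other naive arrays; over 14 measured myeloid markers it was 5.86 and 5.40 against 3.82 to 4.49. Across the other 8 groups the B cell mean ran from 3.58 to 4.10 and the myeloid mean from 3.44 to 4.65. Without both arrays, the call of Ikzf3 in int was the only one of the 6 genes' calls against naive to be lost. High replicate 2 also stood apart: its mean over 9 T cell markers, 9.51, was below the 9.81 to 9.86 of the other high arrays. In sorted bulk RNA, fewer cells with a transcript and less transcript per cell cannot be told apart.

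**Figure D1:**
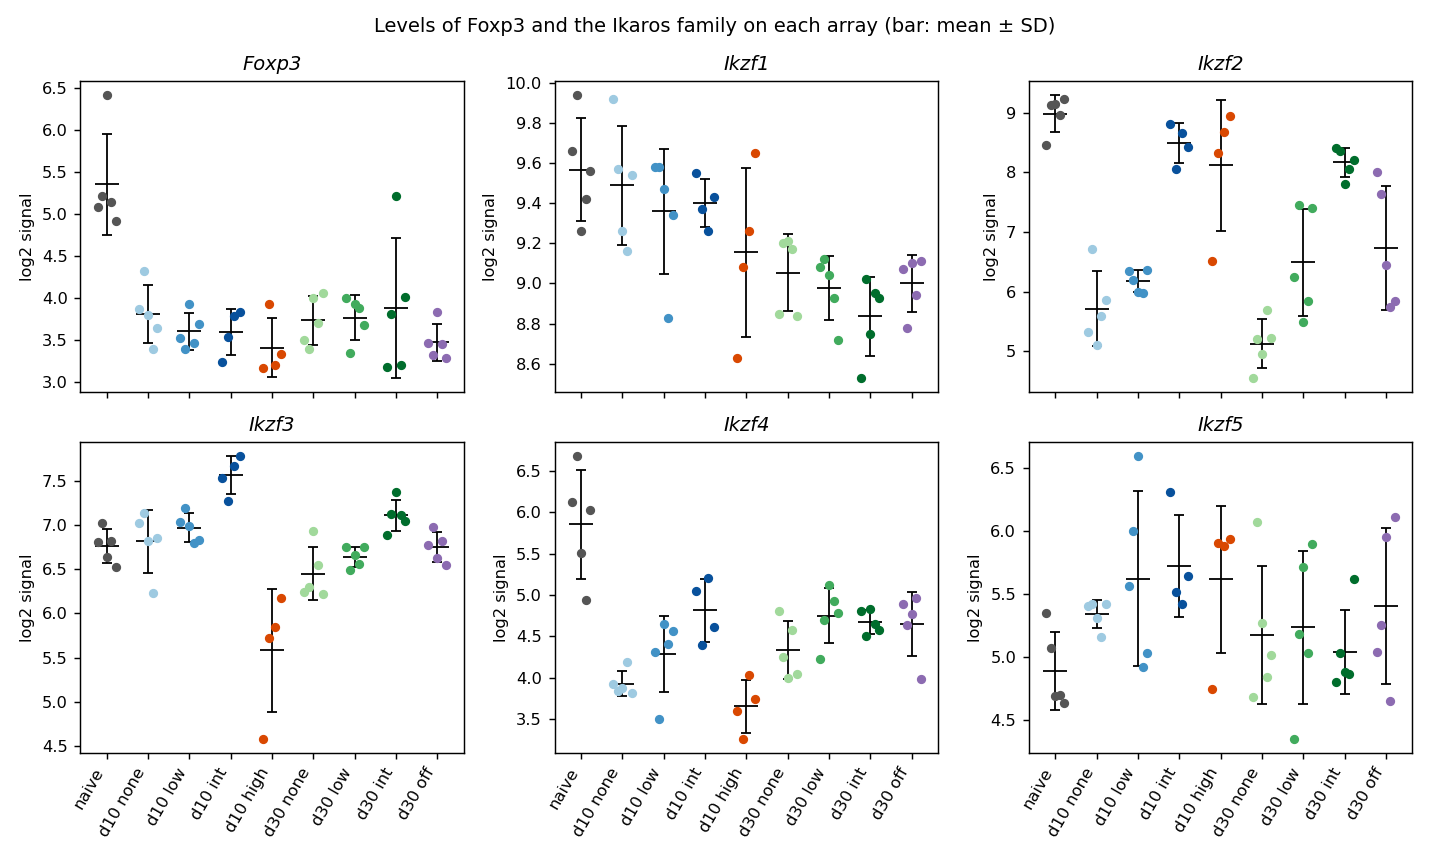
Log2 signal of Foxp3 and the 5 Ikaros family genes on each of 43 arrays (y axis, 1 point per array) in the 9 groups (x axis), with the mean and SD of each group as a bar with whiskers; each gene has its own y scale. Ikzf2 spans a range of group means of 3.85 and is high in naive, int and high, whereas Foxp3 is high in naive alone.

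Foxp3 was highest in naive cells and lower in each primed group tested against them. Naive replicates 1 to 5 read 5.09, 5.22, 6.42, 5.15 and 4.92, a mean of 5.36 ± 0.60 (SD, n = 5). In none on day 10 the arrays read 3.88, 4.33, 3.8, 3.4 and 3.65, and on day 30 they read 3.51, 3.4, 4.01, 3.71 and 4.06. The naive range lay wholly above both. None was 1.55 ± 0.26 (SE) below naive on day 10 on the log2 scale, 2.92-fold (adjusted p = 6.02e-05, limma), and 1.62 ± 0.26 below it on day 30 (adjusted p = 3.4e-05). In int on day 10 Foxp3 was 1.76 ± 0.27 below naive (adjusted p = 2.06e-05), and in high 1.95 ± 0.27 (adjusted p = 1.15e-06). Naive replicate 3, the array with the highest B cell and myeloid marker means, also had the highest Foxp3. Without it, and replicate 4, the none difference on day 10 was 1.26 in size (adjusted p = 0.00424) that of none on day 30 was 1.34 (adjusted p = 0.00217), that of int 1.47 (adjusted p = 8.69e-04) and that of high 1.66 (adjusted p = 6.38e-05); the part of the marker signal in the rest was not tested.

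Of the 6 genes, 3 were lower and 0 higher in none on day 10 than in naive (Foxp3, Ikzf2 and Ikzf4), where 3.3% of all genes tested were called. On day 30, 4 were lower and 0 higher, Ikzf1 being the addition, beside 4.33% of all genes. In int on day 10, 1 was higher (Ikzf3) and 2 were lower (Foxp3 and Ikzf4), beside 3.15%. In high, 3 were lower (Foxp3, Ikzf3 and Ikzf4) and 0 higher, beside 4.82%. These 4 comparisons share the naive arrays.

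No rise of Foxp3 was called where antigen persisted. In low on day 10 the arrays read 3.53, 3.4, 3.94, 3.47 and 3.7, in int 3.24, 3.54, 3.79 and 3.84, and in high 3.17, 3.93, 3.21 and 3.34. All 3 ranges overlapped that of none. The difference from none was -0.20 ± 0.26 for low (adjusted p = 1), -0.21 ± 0.27 for int (adjusted p = 0.967) and -0.40 ± 0.27 for high (adjusted p = 0.527). The 95% interval of the int difference, -0.76 to 0.34, reaches up to a 1.27-fold rise in the probe set's signal, and that of high, -0.95 to 0.15, to 1.11-fold. Without high replicate 2, the array with the lowest Foxp3, the high difference was 0.32 in size. The upper end for int on day 30, given below, is higher. At such low signals these limits may understate a rise of the transcript.

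On day 30 Foxp3 read 4, 3.35, 3.94, 3.89 and 3.68 in low, 3.18, 3.81, 5.22, 3.21 and 4.02 in int, and 3.47, 3.33, 3.84, 3.46 and 3.29 in off. Int replicate 3, at 5.22, was the only array outside naive to reach the naive range; the other 37 of 38 lay below the lowest naive array. Its B cell and myeloid marker means, 3.77 and 3.60, were within the range of the other groups. Differences from none were 0.03 ± 0.26 for low, 0.15 ± 0.26 for int (95% interval -0.37 to 0.67) and -0.26 ± 0.26 for off, none of them called (adjusted p from 0.773 to 0.981). Without int replicate 3 the int difference was -0.18 ± 0.23 (adjusted p = 0.816). Ranked by mean, naive was followed by int on day 30, 1.47 lower (adjusted p = 9.86e-05), and no further pair of neighbours in the order differed. All 8 pairs called among the 36 pairs of groups were naive against another group. No background calls were used here, and a small Foxp3+ fraction may lie below what these arrays resolve.

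Ikzf2 was high in naive cells, low after brief priming and high where antigen persisted at the intermediate or the constitutive level. Whether cells under persisting antigen kept the naive level or regained it was not tested. Naive arrays read 8.45, 9.12, 9.14, 8.96 and 9.23 (mean 8.98 ± 0.31). After brief priming it read 5.33, 6.71, 5.1, 5.59 and 5.86 in none on day 10 and 4.56, 5.21, 4.96, 5.69 and 5.22 in none on day 30. Both ranges lay below the naive range. None was lower than naive by 3.26 ± 0.38 on day 10, 9.59-fold (adjusted p = 4.28e-08, limma), and by 3.85 ± 0.38 on day 30, 14.4-fold (adjusted p = 7.77e-10, limma). These were the largest differences of any of the 6 genes in the 19 comparisons. Without both marker-high naive arrays these were 3.22 (adjusted p = 4.49e-06) and 3.81 (adjusted p = 1.13e-07).

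With intermediate antigen up to day 10 Ikzf2 read 8.81, 8.05, 8.66 and 8.43, wholly above none. The difference from none was 2.77 ± 0.40, 6.82-fold (95% interval 3.88 to 12.0; adjusted p = 1.63e-05). Here 1 of the 6 genes was higher and 0 were lower, beside 1.24% of all genes called. High antigen gave 6.51, 8.32, 8.68 and 8.95, and a difference of 2.40 ± 0.40, 5.27-fold (adjusted p = 4.85e-05). Its first value, of high replicate 2, fell within the range of none, and the other 3 arrays above it; without it the difference was 2.93 ± 0.39 (adjusted p = 7.44e-07). In high, 1 of the 6 genes was higher and 1 lower than in none (Ikzf2 and Ikzf3), beside 5.25% of all genes.

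At the low dose Ikzf2 read 6.34, 6.2, 6, 5.97 and 6.37 on day 10, within the range of none, and the difference of 0.46 ± 0.38 was not called (adjusted p = 1; 95% interval -0.31 to 1.23). Int exceeded low by 2.31 ± 0.40, 4.96-fold, without overlap of ranges (adjusted p = 8.12e-04); 1 of the 6 genes was higher here and 0 lower, beside 0.541% of all genes. High and int did not separate, at -0.37 ± 0.43 (adjusted p = 0.81; interval -1.23 to 0.49). Neither int (-0.49 ± 0.40, adjusted p = 0.735) nor high (-0.87 ± 0.40, adjusted p = 0.301) differed from naive by the test, though intervals of -1.31 to 0.32 and -1.68 to -0.05 leave room for a lower level.

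On day 30 the intermediate dose again went with high Ikzf2, at 8.4, 8.35, 7.81, 8.06 and 8.2, above every array of none. The difference was 3.04 ± 0.38, 8.20-fold (interval 4.82 to 13.96; adjusted p = 5.17e-07), with 1 of the 6 genes higher and 0 lower, beside 2.21% of all genes. Low read 6.25, 7.46, 5.5, 5.84 and 7.41, a wide spread in which replicate 3 fell within the range of none. Its difference from none, 1.36 ± 0.38, missed the threshold (adjusted p = 0.0846). Int exceeded low by 1.67 ± 0.38 (adjusted p = 0.0246), with 1 of the 6 genes higher and 0 lower, beside 0.546% of all genes. That call was lost on leaving out any of 6 of the 10 arrays (low replicates 1, 3 and 4, int replicates 1, 2 and 5), over a range of 1.42 to 1.91 and adjusted p of 0.0108 to 0.113.

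The off group, which lost the antigen on day 10, read 8.01, 7.63, 6.45, 5.74 and 5.84 on day 30. Replicate 1 lay within the range of int and the other 4 below it; all 5 were above every none array. The difference from none was 1.61 ± 0.38, 3.04-fold (adjusted p = 0.0495), with 1 of the 6 genes higher and 0 lower, beside 0.266% of all genes. It was lost on leaving out any of 7 of the 10 arrays, none replicates 1, 2, 3 and 5 and off replicates 1, 2 and 3 (1.29 to 1.85, adjusted p 0.0163 to 0.208). Against int of day 10, where this schedule stood when the drug was stopped, off was 1.75 ± 0.40 lower, 3.37-fold (adjusted p = 0.0104), without overlap; without off replicate 4 this was 1.51 in size (adjusted p = 0.0549). In that comparison 2 of the 6 genes were lower, Ikzf2 and Ikzf3, and 0 higher, beside 1.94% of all genes, with days and sort series not separable. Off minus int on day 30, -1.43 ± 0.38, was not called (adjusted p = 0.0859). Myeloid markers moved with the off group: their mean over 14 genes was 4.17, 4.06, 4.25, 4.48 and 4.65 on its arrays, above the 3.44 to 3.94 of none and the 3.60 to 4.02 of int on day 30, and 2 of the 14 were called higher than in none. S100a8, a neutrophil transcript, read 5.31, 5.44, 7.9, 7.34 and 8.49, so that off replicates 3 to 5, with the lower Ikzf2, had the higher signal of this marker. Lyz2, a myeloid transcript, read 3.61, 2.87, 3.3, 3.68 and 4.27 on the same arrays and did not split them so. In none on day 10, S100a8 read 5.31, 3.6, 8.16, 8.27 and 7.57. The part of these markers in the Ikzf2 values was not tested.

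By group mean Ikzf2 ran from naive (8.98) through int on day 10 (8.49), int on day 30 (8.16), high (8.12), off (6.73), low on day 30 (6.49), low on day 10 (6.18) and none on day 10 (5.72) to none on day 30 (5.13). Among neighbours in that order only high and off differed (adjusted p = 0.0365). Over all 36 pairs of groups 20 were called, the most of the 6 genes. No share of all genes was taken over the 36 pairs, so such counts compare the 6 genes only with each other.

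Several comparisons held 0 calls among the 6 genes. They were low against none on day 10 (beside 0.00451% of all genes) and day 30 (beside 0.654%), off against int (beside 0.464%) and off against low (beside 0.167%). Day 30 against day 10 gave 0 in none (beside 3.43%), in low (beside 2.87%) and in int (beside 0.712%). The interaction terms, which test whether the effect of a dose against none changed from day 10 to day 30, gave 0 of 6 for int (beside 0.0902%) and 0 of 6 for low (beside 0.0316%). For Ikzf2 these terms were 0.27 ± 0.55 (adjusted p = 0.971) and 0.91 ± 0.54 (adjusted p = 0.929), and the limits of precision leave a change of up to 1.39 and 1.99 possible.

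**Figure D2:**
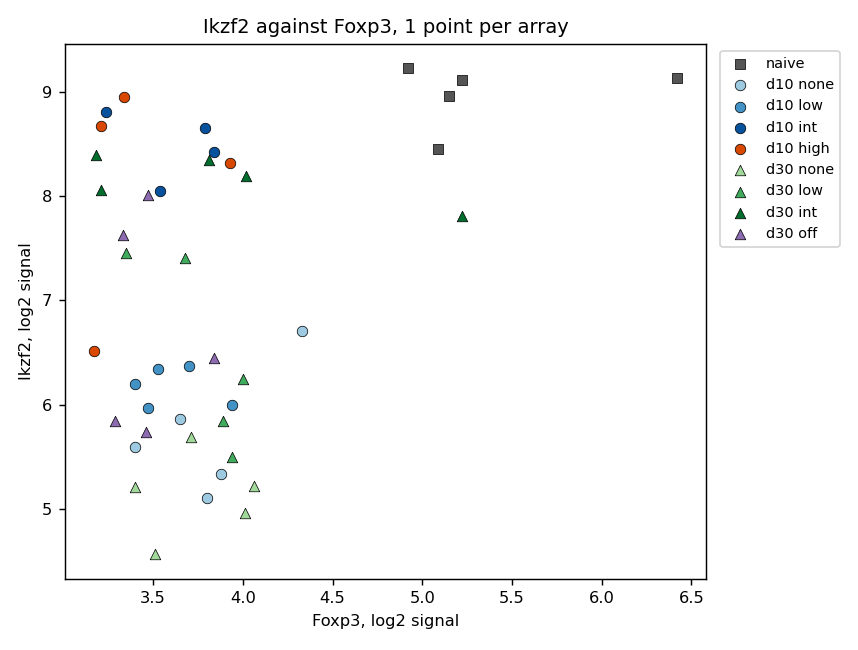
Log2 signal of Ikzf2 (y axis) against Foxp3 (x axis), 1 point per array, coloured by group, with squares for naive, circles for day 10 and triangles for day 30. The naive arrays sit at the upper right. Of the 13 int and high arrays, 12 lie above every none array in Ikzf2, high replicate 2 (6.51) being the other; their Foxp3 is below the none range of 3.4 to 4.33 on 6 arrays and above it on 1, int replicate 3 of day 30.

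The joint pattern was tested on each array as Ikzf2 minus Foxp3, whose absolute size has no meaning since the genes have different probe sets, but whose change between groups compares how far each signal moved. Outside naive, Foxp3 group means of 3.41 to 3.89 lay near the array medians of 3.28 to 3.44. A further fall or a small rise of Foxp3 may not show at such signals, so none against naive cannot rank how far both genes differed. On day 10 this difference was 2.98 larger in int than in none and 2.80 larger in high (each adjusted p = 0.0132, exact two-sided permutation test, adjusted over 10 comparisons). On day 30 it was 2.89 larger in int and 1.87 larger in off (each adjusted p = 0.0132, the same exact test). The groups did not overlap in any of these 4, and the unadjusted p of 0.00794 is the smallest that their sizes allow. For low the gain was 0.66 on day 10 (adjusted p = 0.0529) and 1.33 on day 30 (adjusted p = 0.0496, exact permutation test), with overlapping ranges; the second was lost on leaving out any of 8 of the 10 arrays, all but low replicates 3 and 4. Ikzf2 was thus higher relative to Foxp3 under intermediate and high antigen than in none, while Foxp3's own difference from none stayed within the intervals above. With little change in Foxp3, these results mostly repeat those of Ikzf2 alone, such as 2.77 for int on day 10, and are no separate support. In none the difference was 1.71 smaller than in naive on day 10 and 2.23 smaller on day 30 (each adjusted p = 0.0132, exact permutation test). In int on day 10 it was 1.27 larger than in naive (adjusted p = 0.0227, exact permutation test), where Ikzf2 was near its naive level and Foxp3 was not; without int replicate 1 the adjusted p was 0.0595. Without both marker-high naive arrays these 3 comparisons gave 1.95, 2.47 and 1.03 in size (adjusted p = 0.0298, 0.0298 and 0.0408, exact permutation test).

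**Figure D3:**
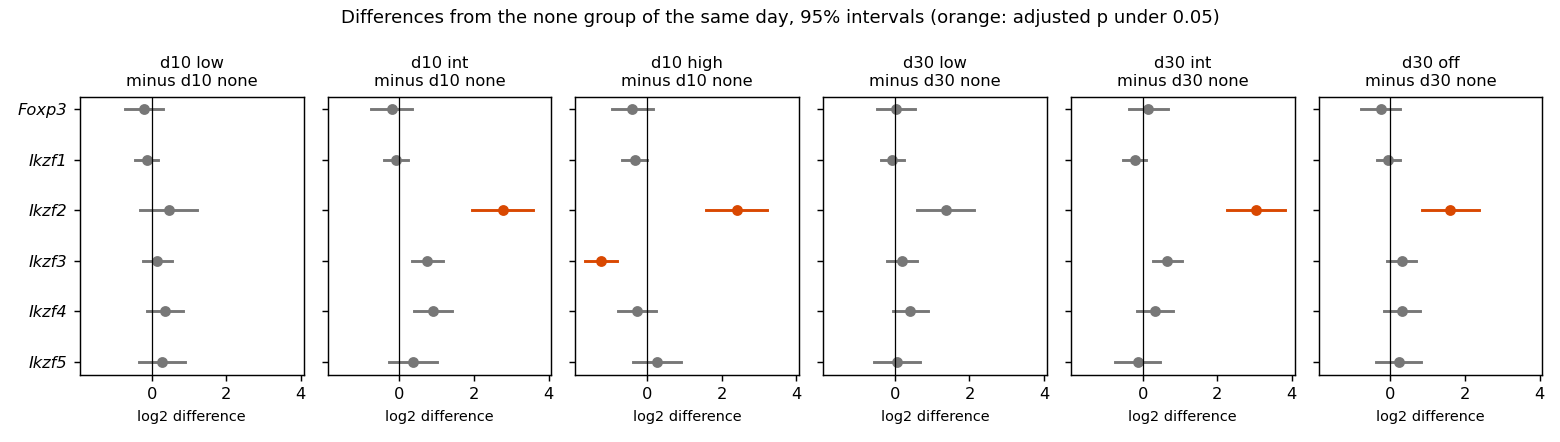
Differences in log2 signal from none of the same day (x axis) for the 6 genes (y axis), in 6 panels for low, int and high on day 10 and low, int and off on day 30; points are limma estimates, lines 95% intervals, and orange marks an adjusted p under 0.05. Ikzf2 is called in int and high on day 10 and in int and off on day 30, Ikzf3 in high, and Foxp3 lies across 0 in all 6 panels.

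Ikzf4, which encodes Eos, a partner of Foxp3, was, like Foxp3, highest in naive cells. Naive arrays read 6.13, 6.68, 5.51, 4.94 and 6.03, none on day 10 read 3.92, 3.84, 3.87, 4.19 and 3.81, and none on day 30 read 4.8, 4.25, 3.99, 4.58 and 4.04. Both none ranges lay below the naive range. Ikzf4 was lower in none than in naive by 1.93 ± 0.24 on day 10 (adjusted p = 1.54e-07, limma) and by 1.53 ± 0.24 on day 30 (adjusted p = 2.64e-05, limma). The naive arrays with the most B cell and myeloid marker signal, 3 and 4, had the lowest Ikzf4, and without them the day 10 difference was 2.35 in size (adjusted p = 3.95e-09).

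Under int on day 10 Ikzf4 read 5.05, 4.39, 5.21 and 4.61, wholly above none, a difference of 0.89 ± 0.25 that missed the threshold (adjusted p = 0.0693). It remained 1.04 ± 0.25 below naive (adjusted p = 0.0093), a call lost without int replicate 2 (adjusted p = 0.0655) or with only the groups compared in the fit (adjusted p = 0.117). High antigen gave 3.59, 3.26, 4.03 and 3.74, 2.20 ± 0.25 below naive (adjusted p = 1.3e-08) and 1.16 ± 0.27 below int, without overlap (adjusted p = 0.00563). Against int, high was lower for 2 of the 6 genes, Ikzf3 and Ikzf4, and higher for 0, beside 2.99% of all genes. On day 30 the means of low, int and off were 4.75 ± 0.34, 4.67 ± 0.14 and 4.65 ± 0.39 beside 4.33 ± 0.35 in none, and no difference was called. Of the 36 pairs 13 were called, and the only step in the order that differed was that from naive to int on day 10.

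Ikzf3, or Aiolos, was the gene in which intermediate and high antigen differed most. None on day 10 read 7.03, 7.14, 6.82, 6.23 and 6.86, int 7.54, 7.28, 7.67 and 7.78, and high 4.58, 5.72, 5.85 and 6.17. Int lay wholly above none and high wholly below it; every array of every other group, from 6.22 upwards, was also above the highest high array. High was 1.24 ± 0.21 below none (adjusted p = 4.47e-05), 1.19 ± 0.21 below naive (adjusted p = 7.26e-05) and 1.99 ± 0.22 below int, 3.97-fold (adjusted p = 1.68e-08). Without high replicate 2 these were 0.90, 0.85 and 1.65 in size (adjusted p 0.0011, 0.00182 and 8.4e-08). Int exceeded naive by 0.80 ± 0.21 (adjusted p = 0.0171), a call lost without int replicate 3 or 4, naive replicate 5, or both marker-high naive arrays (adjusted p 0.0659, 0.0867, 0.0538 and 0.0991).

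The excess of Ikzf3 in int over none missed the threshold on both days, at 0.75 ± 0.21 on day 10 (adjusted p = 0.0559) and 0.67 ± 0.20 on day 30 (adjusted p = 0.0584). Day 30 int arrays read 6.89, 7.13, 7.38, 7.12 and 7.05 and overlapped none at 6.24, 6.3, 6.93, 6.55 and 6.22. The day 10 value passed after quantile normalization (adjusted p = 0.0337) and with array quality weights (adjusted p = 0.009), among others. Off was 0.82 ± 0.21 below int of day 10 (adjusted p = 0.0239), a call lost without any of int replicates 1, 3 and 4 or off replicates 3 and 5 (adjusted p up to 0.0933). In all, 12 of the 36 pairs were called, and the single step in the order was that from none on day 30 down to high (adjusted p = 0.00454).

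Ikzf1, the founding member of the family, had the narrowest range of group means. They spanned 0.73, from 9.57 ± 0.26 in naive to 8.84 ± 0.20 in int on day 30. Arrays ran from 8.63 to 9.94 on days 3 and 10 and from 8.53 to 9.21 on day 30, where each of the 4 groups had a lower mean than its day 10 counterpart. Among the 19 comparisons 1 was called: none on day 30 was 0.51 ± 0.15 below naive (adjusted p = 0.0423), without overlap. That call was lost on leaving out any of none replicates 1 and 5 and naive replicates 1, 2 and 5 (adjusted p up to 0.148). Of the 36 pairs 6 were called. All 4 day 30 groups were below naive, int by 0.73 (adjusted p = 0.00134), low by 0.59 (adjusted p = 0.0166) and off by 0.57 (adjusted p = 0.0195) besides none, and int and low of day 30 were also below none of day 10 (adjusted p = 0.00735 and 0.0429). No antigen effect was called on either day, with differences from none of -0.34 to -0.05. The largest of them, for high, had a 95% interval of -0.66 to -0.01.

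Ikzf5 had 0 calls in the 19 comparisons and in the 36 pairs. Group means ran from 4.89 ± 0.31 in naive to 5.72 ± 0.40 in int on day 10, a range of 0.83, and single arrays from 4.35 to 6.59. The difference nearest to the threshold was that of int on day 10 over naive, 0.83 ± 0.32 (adjusted p = 0.196), where the ranges did not overlap. SDs within groups reached 0.69, and the 95% interval of int minus none on day 10 was -0.27 to 1.02. Over all 6 genes and 19 comparisons, 24 of 114 differences were called, beside 0.00451% to 5.25% of all genes in a single comparison.

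Genes that Treg cells characteristically express were read from a list of 24, of which 23 were measured and which does not hold the 6 genes above. With int on day 10, 11 of 23 were higher than in none and 0 lower, beside 0.784% and 0.46% of all genes; the list's median difference was 0.75, and that of all genes -0.01. The members that rose most were Tigit, an inhibitory receptor (3.07 ± 0.42, adjusted p = 5.48e-06), the cytokine Il10 (2.35 ± 0.42, adjusted p = 5.16e-04), the costimulatory receptor Tnfrsf9 (1.66 ± 0.44, adjusted p = 0.0387) and Nt5e, which encodes the ectoenzyme CD73 (1.63 ± 0.31, adjusted p = 0.00129). Among those not called were Lrrc32, which encodes the Treg surface protein GARP (-0.25 ± 0.13, adjusted p = 0.643), and the orphan receptor Gpr83 (0.76 ± 0.25, adjusted p = 0.165), both named here after their values were seen. Many of the listed genes are also induced by T cell receptor signalling in conventional T cells, so the counts are no measure of Treg cells.

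High antigen was accompanied by 15 higher and 0 lower of 23 (beside 2.77% and 2.48% of all genes; list median 1.03, all genes 0.01). Tigit rose by 3.76 ± 0.42 (adjusted p = 1.08e-08), Nt5e by 3.71 ± 0.31 (adjusted p = 7.49e-12), the costimulatory receptor Tnfrsf4 by 3.05 ± 0.30 (adjusted p = 5.81e-10) and Tnfrsf9 by 2.96 ± 0.44 (adjusted p = 4.41e-06). On day 30, int gave 11 higher and 0 lower (beside 1.42% and 0.794% of all genes; list median 0.82), led by Tigit (4.23 ± 0.40, adjusted p = 1.03e-09), Nt5e (2.22 ± 0.29, adjusted p = 2.06e-06) and Ctla4, an inhibitory receptor of activated and regulatory T cells (2.04 ± 0.23, adjusted p = 3.53e-08). Low on day 30 gave 6 higher and 0 lower (beside 0.388% and 0.266% of all genes), although Ikzf2 was not called there. Off gave 2 higher, Tigit (2.34 ± 0.40, adjusted p = 0.00158) and Nt5e (1.46 ± 0.29, adjusted p = 0.0123), and 0 lower, beside 0.194% and 0.0721%. Off replicates 1 and 2, the arrays with the highest Ikzf2 of that group, also had the highest means over the list, 5.40 and 5.56 against 4.77 to 4.88, and the lowest myeloid marker means of the group, as given above.

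Against naive, none on day 10 had 2 of the 23 higher and 9 lower, beside 1.9% and 1.41% of all genes. Tnfrsf9 fell by 3.26 ± 0.41 (adjusted p = 2.8e-07), Gpr83 by 2.61 ± 0.24 (adjusted p = 6.21e-11) and the enkephalin precursor Penk by 1.93 ± 0.35 (adjusted p = 2.23e-04), while Nrp1, a semaphorin receptor on thymic Treg cells, rose by 2.11 ± 0.25 (adjusted p = 5.77e-08). Nrp1 was thus higher than in naive where Ikzf2 and Foxp3 were lower.

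**Figure D4:**
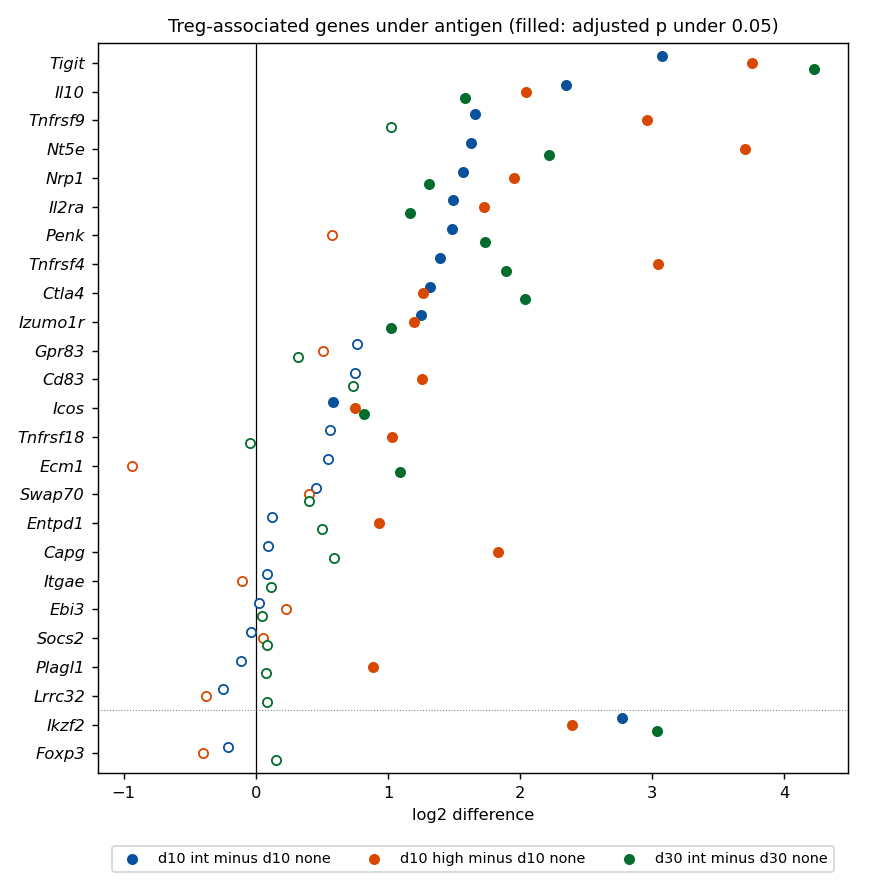
Differences in log2 signal from none of the same day (x axis) for Foxp3, Ikzf2 and the 23 measured Treg-associated genes (y axis, sorted by int on day 10), for int (blue) and high (orange) on day 10 and int on day 30 (green); filled points have an adjusted p under 0.05. Tigit and Ikzf2 lie well to the right. Foxp3, Lrrc32, Itgae, Ebi3 and Socs2 are among the genes called in none of the 3 comparisons.

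Factors that act on the Foxp3 gene or its expression were counted from a second list, 28 of 31 measured. In int on day 10, 4 were higher than in none and 2 lower, beside 0.784% and 0.46% of all genes. Those that rose included Irf4 (2.82 ± 0.30, adjusted p = 6.43e-08), a factor induced by receptor signalling, and the orphan nuclear receptors Nr4a1 (2.79 ± 0.29, adjusted p = 6.43e-08) and Nr4a3 (2.25 ± 0.29, adjusted p = 1.24e-06), which can bind and activate Foxp3. Smad3, which carries the TGF-beta signal to Foxp3, fell by 1.30 ± 0.30 (adjusted p = 0.0127). High gave 5 higher and 5 lower, beside 2.77% and 2.48% of all genes. Nr4a2 rose by 2.38 ± 0.35 (adjusted p = 3.42e-06), Nr4a1 by 2.22 ± 0.29 (adjusted p = 5.64e-07) and Irf4 by 1.79 ± 0.30 (adjusted p = 5.79e-05), while Satb1, a chromatin organizer needed for Treg specification in the thymus, fell by 1.61 ± 0.26 (adjusted p = 1.95e-05). High replicate 2 had a mean over the list of 6.35, against 6.88 to 7.12 on the other high arrays and 6.47 to 6.84 in none; without it the counts were 7 higher and 4 lower. In int on day 30 the counts were 7 and 1, beside 1.42% and 0.794% of all genes, with Irf4 up by 2.84 ± 0.29 (adjusted p = 4.57e-09) and Satb1 down by 1.81 ± 0.24 (adjusted p = 2.17e-06). Foxp3 itself was called in none of these.

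Subunits of the complexes with which Ikaros factors work were read from a list of 18 genes of NuRD and related complexes, all measured. In int against none 0 were called on either day, beside 1.24% of all genes on day 10 and 2.21% on day 30, shares at which few or none of 18 would be called. In high 2 were lower than in none and 0 higher, beside 2.48% and 2.77% of all genes: Chd3, a NuRD remodelling ATPase, fell by 0.85 ± 0.12 (adjusted p = 1.56e-06) and the NuRD subunit Mta3 fell by 0.65 ± 0.20 (adjusted p = 0.0463). High replicate 2 had a list mean of 7.03 against 7.31 to 7.48 on the other high arrays, and without it Chd3 alone was called (-0.92 ± 0.13, adjusted p = 1.87e-06; Mta3 -0.56 ± 0.22, adjusted p = 0.159). The list's median difference in int was 0.05 on day 10 and 0.06 on day 30. Against naive, 0 were called in none and in int on day 10, 1 was lower in high and 2 were lower in none on day 30, beside the 3.3%, 3.15%, 4.82% and 4.33% of all genes given above.

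The genes most like each member over the 9 group means are given as a description, since groups share no arrays but few points make high correlations common. For Ikzf2 they were Pou2af1, a coactivator of octamer-binding factors (Pearson r = 0.971), Cxxc5, a CpG-binding protein (0.943), Tusc3 (0.933), the histone demethylase Kdm6b (0.932) and the NF-kB family regulator Bcl3 (0.923), out of 1888 compared. Pou2af1 had group means of 7.10 ± 0.37 in int and 5.55 ± 0.37 in none on day 10, and without naive its r with Ikzf2 was 0.972. For Foxp3 the genes were Cd79b, Ankrd55, Ly6d, H2-DMb2 and Tmem108 (0.974 to 0.981), among them Cd79b, a B cell receptor chain, with 5.48 ± 2.28 (SD) in naive. Ly6d and H2-DMb2 also spread widely in naive, at 5.35 ± 1.52 and 4.59 ± 2.17 (SD). Ankrd55 and Tmem108 did not, at 3.98 ± 0.39 and 6.58 ± 0.31 (SD). Without naive the r of these genes with Foxp3 fell to between 0.548 and 0.683, so that they rest on that group.

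Kdm7a, Snrk and Zdhhc20 were most like Ikzf3 (0.978, 0.941 and 0.939), and the class II chaperone subunit H2-Oa, Hspb11 and Skil most like Ikzf4 (0.966, 0.938 and 0.926). Eif4a1, Limd2 and Trpc4ap were most like Ikzf1 (0.961, 0.959 and 0.935), and Gnptab, Celsr1 and Hpcal1 most like Ikzf5 (0.928, 0.899 and 0.893). Over the 43 single arrays these r were lower, at 0.773 to 0.854 for Ikzf3 and 0.544 to 0.668 for Ikzf4. For Ikzf1 they were 0.466 to 0.714 and for Ikzf5 0.296 to 0.499. Those of the genes named above for Ikzf2 and Foxp3 were lower too, at 0.616 to 0.807 and 0.65 to 0.827. As Ikzf5 had 0 calls in the 36 pairs, its likenesses rest on group means not shown to differ. Between the 6 genes themselves, Foxp3 and Ikzf4 had the highest r, 0.803, which was 0.299 over the 8 groups other than naive. Foxp3 and Ikzf2 had an r of 0.435 over 9 groups and -0.275 over 8.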

How the data were processed

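Values are log2 signals of 41345 probe sets on 43 arrays, deposited by the authors to 2 decimals and used as deposited. The values ran from 1.46 to 13.87, from which log2 was inferred; the normalization method is not given in the sources used here. Per the labels' protocols, 0.1 to 30 ng of RNA was amplified before labelling, which can compress low signals. Probe sets with 1 gene symbol (23521; 1814 had several, 16010 none) gave 22180 genes, the probe set with the highest mean standing for a symbol with several (1082 symbols). A RefSeq table held 22139 of the names. Array medians lay within 3.28 to 3.44. The number of arrays limits the precision.

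All arrays entered 1 limma 3.58.1 model (R 4.3.3) with a mean per group and moderated, trended variances. Each of 19 differences, 2 interactions and 36 pairs of groups was adjusted over all genes by Benjamini-Hochberg and called under 0.05. Differences are log2, ± the standard error unless marked SD. Ikzf2 minus Foxp3 was tested by exact permutation over arrays. On simulated data for int against none on day 10, with 50 genes planted at each size among 22180, 16% were recovered at log2 0.5, 88% at 1 and 100% at 2 and 3, with 11 false calls. The 6 genes, the lists and the tests were chosen with earlier results of these data known. Named besides the 6 were, per list and comparison, up to 4 called genes with the largest change, and the 5 or 3 genes most alike in group means, leaving out unnamed and predicted genes, receptor segments and small RNAs; likeness was computed over genes whose group means spanned at least 1. Alternatives covered normalization, the variance model, array weights, a replicate block, dim genes, probe set choice, an exact permutation test and leaving out arrays. Probe set choice could not change the values of the 6 genes, each with 1 probe set of its own, but only those of other genes. List counts without high replicate 2 were added after seeing the data.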

Additional observations from a re-analysis of the deposited data

Results flagged for a closer look

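In 54 groups of values (6 genes in 9 groups), 4 held an array set apart from the rest of its group by a gap test at its 95% level, a rate of flags near the 1 in 20 that chance gives. Foxp3 read 6.42 on naive replicate 3, against 4.92 to 5.22 on the other naive arrays; this array also had the highest mean over B cell and myeloid markers. Ikzf4 read 4.19 on replicate 4 of none on day 10, against 3.81 to 3.92 on the others. Ikzf5 read 4.74 on replicate 2 of high, against 5.88 to 5.93 on the others; Ikzf1, Ikzf2, Ikzf3 and Foxp3 were also lowest on this array within the group. Ikzf5 read 5.62 on replicate 5 of int on day 30, against 4.8 to 5.03 on the others. The cause was not tested in any of these.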

How the results depend on the processing

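Over 11 settings and the removal of each array in turn, 17 of the 24 called differences of the 6 genes were called throughout. The other 7 were lost in at least 1 run. Of the 90 uncalled ones, 13 passed in at least 1 run, and 0 differences reversed. Among the settings, the exact permutation test of single genes was judged by its unadjusted p and run on only some of the comparisons. Off minus int of Ikzf3 on day 30 passed by this unadjusted p alone. So did int minus none, none minus naive and int minus naive of Ikzf5 on day 10. For Ikzf2, off minus none on day 30 was no longer called after quantile normalization (1.49, adjusted p = 0.0726), without the variance trend (1.61, 0.0616), with only the groups compared in the fit (1.61, 0.218), with array weights (1.57, 0.119) and without both marker-high naive arrays (1.61, 0.0558), and ranged from 1.29 to 1.85 on leaving out arrays. Off minus int of Ikzf2 on day 30 passed with array weights (-1.49, 0.0498), without 4 arrays that stand apart (-1.43, 0.0446) and in an exact permutation test (-1.43, p = 0.0159), and ranged from -1.75 to -1.18. Low minus none of Ikzf2 on day 30 passed without the 4 arrays (1.36, 0.0473) and in the exact permutation test (1.36, p = 0.0159), and ranged from 1.12 to 1.61. On leaving out arrays, Ikzf2 minus Foxp3 ranged from 0.51 to 0.79 for low against none on day 10, from 0.98 to 1.62 for it on day 30, and from 1.04 to 1.44 for int on day 10 against naive. Int minus low of Ikzf2 on day 30 was 1.67 with only the groups compared (adjusted p = 0.0552) and 1.59 with array weights (0.0522). The cause of these changes was not tested.

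Same-numbered arrays did not deviate together more than others: their deviations had a median correlation of 0.0012 over 164 pairs, and 3.05% of them were over 0.1. For 657 other-numbered pairs the median was -0.00036, and 2.59% were over 0.1. Such values cannot show whether the numbers pair samples by animal or sort. With a replicate block the 6 genes had 22 calls in place of 24; off minus none of Ikzf2 on day 30 was 1.61 (adjusted p = 0.0572) and none on day 30 minus naive of Ikzf1 was -0.51 (0.0505). Signal over background was not given for the arrays, which limits what can be said of Foxp3 at its low signals.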
